A study of Mus musculus with 12 samples.

Results

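The sirtuins are the 7 NAD+-dependent protein deacylases of mammals, and the genes that encode them, Sirt1 to Sirt7, were taken by gene symbol from the expression tables of cultured mouse neural cells exposed to NAD+. All 7 were found among the 55401 genes of the tables. They were described in all 12 samples. The cells were adult neural stem/progenitor cells (aNSPCs) isolated from the forebrain of C57BL/6 mice aged 8 to 10 weeks and grown as primary cultures. In the proliferating Ctrl group, cells dividing in medium with 20 ng/mL EGF and 20 ng/mL FGF2 received no NAD+. The proliferating NAD+ group received 1 mM NAD+ in the same medium. The differentiation Ctrl group was cultured with 1 µM retinoic acid and 5 µM forskolin, and the differentiation NAD+ group received 1 mM NAD+ in addition. The culture medium is listed with 20 ng/mL EGF and 20 ng/mL FGF2 for all 12 samples. The methods of the study name no withdrawal of these factors for differentiation. Each of these 4 groups had 3 samples. The titles name NAD+ for 6 samples and were followed, although a treatment field of the labels reads untreated for all 12. No group carries a transgene or deletion. The study calls the 3 samples of a group biological repeats. The sources used here do not state whether these were separate cultures or separate mice, so the p-values measure the spread between these samples, whatever its source. How long the sequenced cells were exposed to NAD+ is not given in the sources used here.

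Sirtuins use NAD+ as a co-substrate. They cleave it each time they remove an acetyl or longer acyl group from a lysine, and nicotinamide, which is released, inhibits them. Their activity is thereby tied to the NAD+ supply of the compartment in which each enzyme resides. SIRT1, SIRT6 and SIRT7 are mostly nuclear, SIRT2 is mostly cytosolic, and SIRT3, SIRT4 and SIRT5 are mitochondrial. In the nervous system, SIRT2 is abundant in oligodendrocytes and myelin, where it deacetylates tubulin, and SIRT1 has been studied in the fate choice of neural progenitors. Transcript levels, which are described here, do not measure enzyme activity.

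The 7 genes lie on 5 chromosomes (mm10, GENCODE M21). Sirt1 (ENSMUSG00000020063) spans chr10:63319005-63381704 on the minus strand and Sirt6 (ENSMUSG00000034748) spans chr10:81621785-81627797 on the minus strand. Sirt2 (ENSMUSG00000015149) lies on the plus strand at chr7:28766735-28788661, and Sirt3 (ENSMUSG00000025486) on the minus strand at chr7:140863666-140882309. Sirt4 (ENSMUSG00000029524) is at chr5:115478010-115484725 on the minus strand, Sirt5 (ENSMUSG00000054021) at chr13:43365496-43395203 on the plus strand, and Sirt7 (ENSMUSG00000025138) at chr11:120618372-120625240 on the minus strand. Several have close neighbours. The 5′ end of Nfkbib, which encodes an inhibitor of NF-κB, overlaps the 5′ end of Sirt2 by 778 bases on the other strand. Psmd13, which encodes a proteasome subunit, overlaps the 5′ end of Sirt3 by 342 bases on the other strand, and Ric8a overlaps its 3′ end by 707 bases. Mafg, which encodes a small MAF transcription factor, overlaps the 5′ end of Sirt7 by 124 bases on the same strand. Whether strand was used in counting is not given in the sources used here, so the reads of such overlaps cannot be told apart.

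The sequences just before the transcription start are shown for the 3 genes for which a long stretch is free of annotated exons, because Sirt2 carried the largest change with NAD+ and Sirt1 and Sirt5 differ from it in base composition. All 7 genes had a window of 250 bases before the RefSeq start (GRCm38.p6). The windows of Sirt3 and Sirt7 lie wholly in annotated exons, and those of Sirt4 and Sirt6 have 34 and 19 bases outside them, so they are not printed. Capitals mark matches on either strand to the letters of 6 motifs. The GC box was searched as GGGCGG, the CCAAT box by the letters of its name and the E-box as CACGTG. For the cAMP response element the letters were TGACGTCA, and for its half-site, which the full element contains, TGACG. For the half-site of nuclear receptors they were AGGTCA. The stretch of Sirt2 is chr7:28766641-28766734 on the plus strand, upstream of Sirt2 and in the Nfkbib gene outside its exons. The stretch of Sirt1 is chr10:63339051-63339285 on the minus strand, inside the longer GENCODE gene but outside its exons. The stretch of Sirt5, chr13:43365285-43365495 on the plus strand, ends directly before the GENCODE gene.
Sirt2: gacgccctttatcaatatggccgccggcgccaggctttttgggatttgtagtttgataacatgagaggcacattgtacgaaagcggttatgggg
Sirt1: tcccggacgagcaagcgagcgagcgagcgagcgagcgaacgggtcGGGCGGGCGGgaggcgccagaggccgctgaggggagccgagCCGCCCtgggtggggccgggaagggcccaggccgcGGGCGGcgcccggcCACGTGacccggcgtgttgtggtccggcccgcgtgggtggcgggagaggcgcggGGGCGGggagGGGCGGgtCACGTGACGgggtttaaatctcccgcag
Sirt5: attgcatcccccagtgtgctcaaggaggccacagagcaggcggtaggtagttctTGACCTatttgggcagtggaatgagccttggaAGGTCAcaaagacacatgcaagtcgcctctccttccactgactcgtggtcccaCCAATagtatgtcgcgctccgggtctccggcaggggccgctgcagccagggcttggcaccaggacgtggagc

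The Sirt1 stretch of 235 bases was 78.3% GC with 36 CG dinucleotides. It held 6 GC boxes, 2 E-boxes and 1 TGACG match that overlaps the E-box nearest to the start. The Sirt5 stretch of 211 bases was 59.7% GC with 9 CG dinucleotides, and it held 2 nuclear receptor half-sites and 1 CCAAT box. In the Sirt2 stretch of 94 bases, which was 50.0% GC with 6 CG dinucleotides, none of the searched letters occurred. In the part of its window that overlaps exons, Sirt2 had 1 GC box and 2 CCAAT boxes. Among the windows of 27025 genes, the GC box occurred in 32.9%, the CCAAT box in 34.5%, the full cAMP response element in 1.62%, its half-site in 17.9%, the E-box in 6.05% and the nuclear receptor half-site in 13.8%. The full cAMP response element was in none of the 7 sirtuin windows. These matches are descriptions of letters, and binding was not measured.

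Expression was given by the authors as FPKM, the number of fragments divided by transcript length and by the mapped fragments of the sample, rounded to 0.01, and the read depth behind it is unknown. Since FPKM is scaled by length, levels of different genes can be set side by side. Cells labelled aNSPCs carried progenitor markers in all 12 samples. Nes, which encodes nestin, was at 47.8 to 97.0 FPKM under proliferating conditions and at 9 to 12.3 FPKM under differentiation conditions, and Sox2 was at 206 to 252 FPKM and 129 to 152 FPKM. The defining markers of microglia, of endothelial cells, and of pericytes and fibroblasts were at or near 0. The highest single values of these 3 lists were 0.29, 0.14 and 0.64 FPKM, the last for Rgs5, a pericyte marker. Oligodendrocyte lineage markers (10 genes) were present, and their summed level was 67.9 to 78.6 FPKM in the proliferating Ctrl group, 53.5 to 63.3 in the proliferating NAD+ group, 226 to 273 in the differentiation Ctrl group and 127 to 159 in the differentiation NAD+ group. In bulk samples, fewer cells of a type and less RNA per cell cannot be told apart. The first replicate of both proliferating groups stood apart, with a root-mean-square log2 distance to the other samples of its group of 0.601 in Ctrl and 0.465 in the NAD+ group, against 0.358 to 0.441 in the other 10 samples.

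Sirt2 was the most abundant and Sirt5 the least abundant sirtuin transcript in all 4 groups. The mean level of Sirt2 exceeded those of 92.5% of the genes detected in the proliferating Ctrl group and 98.7% of those in the differentiation Ctrl group. Sirt5 lay at the 52.0 and 54.6 percentiles. The other 5 genes lay between the 63.7 and 78.8 percentiles in these Ctrl groups. In the proliferating Ctrl group the mean levels fell in the order Sirt2, Sirt6, Sirt4, Sirt1, Sirt3, Sirt7 and Sirt5. Sirt6, Sirt4 and Sirt1 had overlapping values there, as had Sirt3 and Sirt7. In the differentiation Ctrl group the order was Sirt2, Sirt4, Sirt7, Sirt1, Sirt3, Sirt6 and Sirt5. Each of the neighbours from Sirt7 to Sirt6 in that order overlapped with the next. In the differentiation NAD+ group, Sirt4 and Sirt7 were the only neighbours in the order with overlapping values. Sirt6 thus stood in the 2nd place among the 7 genes in proliferating Ctrl cells, in the 4th place in proliferating NAD+ cells, where its values overlapped those of Sirt1, and in the 6th place in both differentiation groups.

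**Figure D1:**
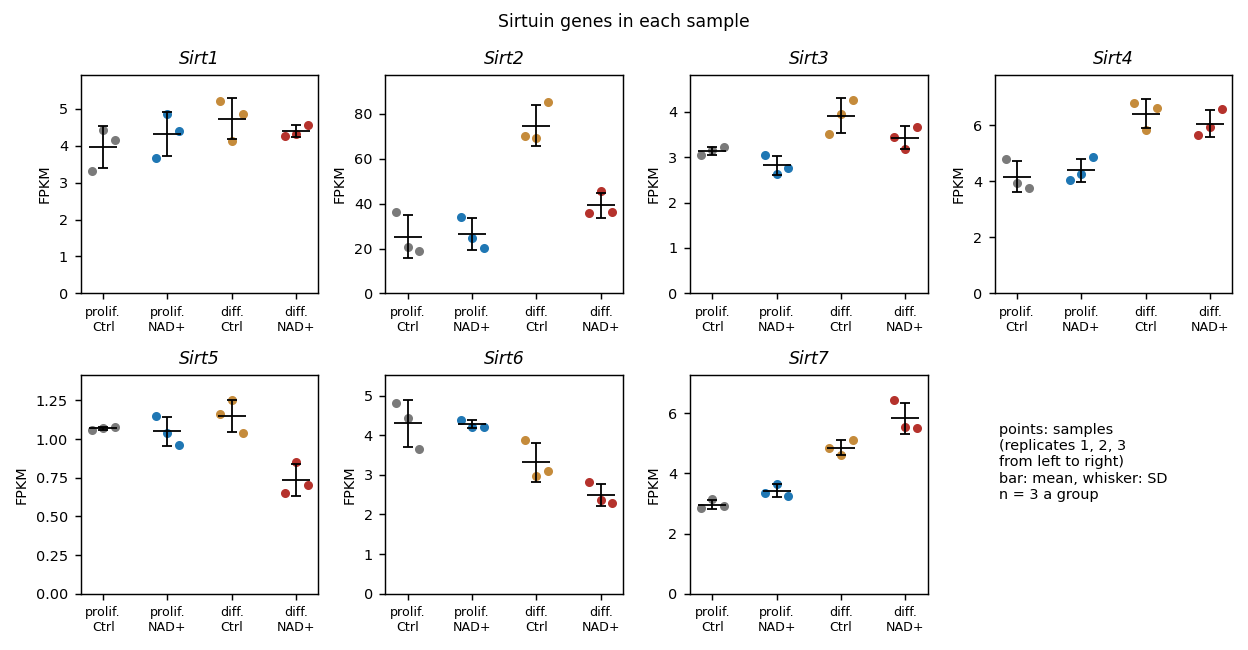
FPKM of the 7 sirtuin genes in each of the 12 samples (points), with the group mean and SD (n = 3), for the proliferating (prolif.) and differentiation (diff.) conditions without NAD+ (Ctrl) or with NAD+. Under differentiation conditions the 3 Sirt2 values of the NAD+ group lie between 35.6 and 45.5 FPKM, all below the Ctrl values of 69.2 to 85.2 FPKM, whereas under proliferating conditions both groups overlap.

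Under proliferating conditions, no difference of a sirtuin transcript between NAD+ and Ctrl cells passed the test. Sirt2, the cytosolic member, was at 36.4, 20.6 and 19.1 FPKM in the Ctrl samples and at 34.1, 24.7 and 20.0 FPKM in the NAD+ samples. The first replicate was the highest in both groups and the groups overlapped over their whole range. The log2 fold change on the log2(FPKM + 0.1) scale, on which all fold changes below are given and changes of low genes are understated, was 0.08 (95% interval -0.61 to 0.77, limma adjusted p = 0.919). This interval is wide, and the log2 fold change without the first replicate of both groups was 0.17 (limma adjusted p = 0.457).

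Among the nuclear members, Sirt1, which encodes a deacetylase of histones and transcription factors such as p53 and FOXO proteins, was at 3.31, 4.41 and 4.16 FPKM in proliferating Ctrl cells and at 3.67, 4.85 and 4.40 FPKM with NAD+. The first replicate was the lowest in both groups, and the groups overlapped (log2 fold change 0.12, 95% interval -0.26 to 0.50). Sirt6, whose product acts on chromatin and in DNA repair, had values of 4.81, 4.43 and 3.65 FPKM in Ctrl and 4.39, 4.22 and 4.21 FPKM with NAD+, and the NAD+ values lay within the Ctrl range. Its log2 fold change was 0.0011 (95% interval -0.31 to 0.31), with a sign that differed between scalings. Sirt7, whose product is enriched in the nucleolus, was at 2.84, 3.14 and 2.91 FPKM in Ctrl and at 3.36, 3.66 and 3.26 FPKM with NAD+. These were the only sirtuin values under proliferating conditions that did not overlap between the groups. The difference of 0.20 on the log2 scale had a standard error of 0.11 and did not pass the test (limma adjusted p = 0.434).

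The mitochondrial members showed overlapping values as well. Sirt3, which encodes the main mitochondrial deacetylase, was at 3.04, 3.15 and 3.22 FPKM in proliferating Ctrl cells and at 3.05, 2.64 and 2.76 FPKM with NAD+ (log2 fold change -0.15, 95% interval -0.43 to 0.12). Sirt4 had values of 4.80, 3.94 and 3.75 FPKM in Ctrl and 4.04, 4.27 and 4.85 FPKM with NAD+ (log2 fold change 0.08, 95% interval -0.25 to 0.40, and -0.023 with quantile normalization). Sirt5 was at 1.06, 1.07 and 1.08 FPKM in Ctrl and at 1.15, 1.04 and 0.96 FPKM with NAD+ (log2 fold change -0.03, 95% interval -0.41 to 0.35). Of the 7 genes, 0 had an adjusted p under 0.05 and 0 had an unadjusted p under 0.05 in limma, beside 0.145% of 18597 tested genes with an adjusted p under 0.05. Values without overlap were found for 1 of 7 members and for 24.1% of all tested genes. The median log2 fold change was 0.08 over the members and 0.07 over all genes.

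Under differentiation conditions, Sirt2 fell with NAD+ exposure, to 0.524 times its Ctrl level, and was the only sirtuin gene whose change passed the test. Its values were 70.0, 69.2 and 85.2 FPKM in the Ctrl samples (74.8 ± 9.05, SD, n = 3) and 35.6, 45.5 and 36.5 FPKM in the NAD+ samples (39.2 ± 5.49, SD, n = 3). Every NAD+ sample was below every Ctrl sample. The log2 fold change was -0.93 (standard error 0.12, 95% interval -1.23 to -0.64, limma adjusted p = 0.0123). The exact two-sided permutation test gave p = 0.1, the smallest value that 3 samples against 3 allow. Over 15 alternative settings the log2 fold change lay between -1.04 and -0.83 and the limma adjusted p between 0.00857 and 0.0660, and the call was lost without moderation of the variance (0.0660) and with all 12 samples in one fit (0.0525).

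Other genes moved beside Sirt2, and their part in its change was not tested. The level of Nfkbib, which overlaps Sirt2, went from 9.15 ± 1.08 FPKM (SD, n = 3) in differentiation Ctrl to 6.18 ± 0.445 FPKM with NAD+ (SD, n = 3). Nfkbib thus fell by 0.56 on the log2 scale (limma adjusted p = 0.0320). Of the 10 oligodendrocyte lineage markers, 9 were tested, of which 3 fell and 0 rose, beside 4.65% of all tested genes that were lower. Among them, Myrf, which encodes a myelin regulatory factor, fell by 1.11 on the log2 scale, and Cnp, which encodes a myelin enzyme, by 0.70 (limma adjusted p = 0.0139 and 0.0147). The median of the 9 genes was -0.70. Of 8 astrocyte markers 3 rose and 2 fell, beside 6.92% of all tested genes called in either direction. Gfap, which encodes an astrocyte filament protein, was at 595 ± 48.1 FPKM in Ctrl and 977 ± 18.8 FPKM with NAD+ (SD, n = 3, log2 fold change 0.72, limma adjusted p = 0.00613). Aldh1l1 and Aldoc were the astrocyte markers that fell, by 0.61 and 0.35 on the log2 scale (limma adjusted p = 0.00494 and 0.0475). The median of the 8 astrocyte markers was -0.07. Mog and Mobp, which are late myelin genes, stayed at or below 0.42 FPKM in all 12 samples. The second replicate of the differentiation NAD+ group had the highest Sirt2 value and the highest summed oligodendrocyte marker level of its group, and the first proliferating replicate had the highest values of both in Ctrl and in the NAD+ group. With NAD+ under proliferating conditions, the median of the 7 tested lineage markers was -0.57. Of these markers 3 had an unadjusted p under 0.05 in limma and 0 were called. Sirt2 had a log2 fold change of 0.08 there, with a limma interval of -0.61 to 0.77 that includes this marker median. These values therefore cannot tell whether Sirt2 and the markers moved together in that comparison, and this was not tested.

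**Figure D2:**
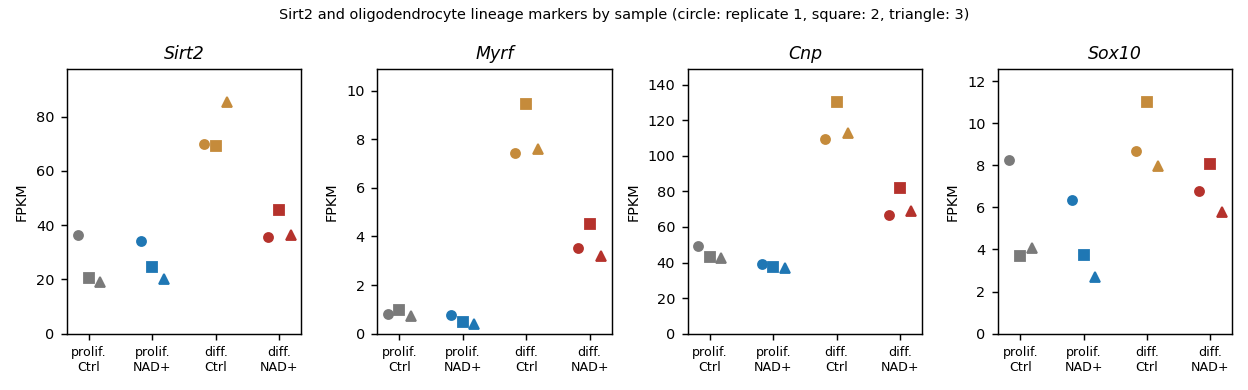
FPKM of Sirt2 and of 3 oligodendrocyte lineage markers, Myrf, Cnp and Sox10, in each sample, with the symbol showing the replicate number. All 4 genes were highest in the differentiation Ctrl group on average, and Myrf and Cnp fell beside Sirt2 with NAD+ under differentiation conditions, with Myrf at 7.44 to 9.43 FPKM in Ctrl and 3.19 to 4.52 FPKM with NAD+.

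The nuclear members differed among themselves under differentiation conditions, and none passed the test. Sirt1 was at 5.22, 4.13 and 4.85 FPKM in Ctrl and at 4.27, 4.32 and 4.57 FPKM with NAD+. Its groups overlapped (log2 fold change -0.10, 95% interval -0.35 to 0.14). Sirt6 had values of 3.87, 2.98 and 3.09 FPKM in Ctrl and 2.82, 2.36 and 2.29 FPKM with NAD+, so that all NAD+ samples were below all Ctrl samples, with a log2 fold change of -0.39 (95% interval -0.73 to -0.06, limma adjusted p = 0.148). Sirt7 was at 4.85, 4.62 and 5.12 FPKM in Ctrl and at 6.44, 5.56 and 5.51 FPKM with NAD+. It was the only member whose NAD+ values all lay above the Ctrl values, with a log2 fold change of 0.26 (95% interval 0.04 to 0.47, limma adjusted p = 0.146).

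Of the mitochondrial members, Sirt5, which encodes a desuccinylase and demalonylase, had the lowest values of the whole family in the differentiation NAD+ group. It was at 1.16, 1.25 and 1.04 FPKM in Ctrl and at 0.65, 0.85 and 0.70 FPKM with NAD+. The groups did not overlap, and the log2 fold change of -0.59 (95% interval -0.97 to -0.21, limma adjusted p = 0.0826) did not pass the test, although it did in the fit of all 12 samples (limma adjusted p = 0.0431). Sirt3 was at 3.50, 3.96 and 4.27 FPKM in Ctrl and at 3.44, 3.17 and 3.67 FPKM with NAD+, which overlap (log2 fold change -0.18, 95% interval -0.44 to 0.07). Sirt4, whose product acts on glutamate dehydrogenase and pyruvate dehydrogenase, was at 6.80, 5.82 and 6.61 FPKM in Ctrl and at 5.64, 5.95 and 6.58 FPKM with NAD+, which overlap as well (log2 fold change -0.08, 95% interval -0.30 to 0.14, and 0.0022 with median-ratio scaling).

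Under differentiation conditions, 1 of the 7 genes thus had an adjusted p under 0.05, beside 6.92% of 19611 tested genes in either direction and 4.65% that were lower. An unadjusted p under 0.05 was reached by 4 members, Sirt2, Sirt5, Sirt6 and Sirt7. The same 4 members had values without overlap, beside 30.7% of all tested genes. The median log2 fold change was -0.18 over the members and -0.08 over all genes. By the rule of an unadjusted p under 0.05 with mean FPKM values differing by more than 2-fold, 0 members were called under proliferating conditions (3.01% of all genes) and 0 under differentiation conditions (4.05% of all genes), where Sirt2 was 1.91 times higher in Ctrl than with NAD+.

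The NAD+ effect of Sirt2 differed between the conditions by -1.01 on the log2 scale (95% interval -1.78 to -0.25), which did not pass the test (unadjusted p = 0.0143, limma adjusted p = 0.211). The difference was -0.56 for Sirt5 (95% interval -1.02 to -0.11, limma adjusted p = 0.237) and -0.40 for Sirt6 (limma adjusted p = 0.348). Sirt1, Sirt3, Sirt4 and Sirt7 had differences between -0.22 and 0.05 with unadjusted p-values over 0.05. In this contrast 0 of 7 members were called, beside 0.467% of 19498 genes, and 2 had an unadjusted p under 0.05. The median was -0.22 over the members and -0.16 over all genes, and median-ratio scaling moved the latter to -0.02. Relative to the median of all genes, the differences of Sirt2 and Sirt5 were -0.86 and -0.41. Without the first replicate of both proliferating groups, a setting chosen after the data were seen, the difference of Sirt2 was -1.10 and passed the test (limma adjusted p = 0.0344).

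The sirtuin transcripts were also compared between the proliferating and the differentiation conditions. In cells without NAD+, Sirt2, Sirt7, Sirt4 and Sirt3 rose and Sirt6 fell from proliferating to differentiation conditions, whereas the differences of Sirt1 and Sirt5 did not pass the test. This comparison sets levels across the tables of both conditions, which were deposited separately, so a difference of handling between the tables and the culture condition cannot be told apart. The median log2 fold change of all genes was -0.06 without NAD+ and -0.20 with NAD+, and median-ratio scaling moved these to 0.06 and 0.05. Values relative to the median of all genes are therefore given as well, here or below. In Ctrl cells they were 0.31 for Sirt1, 0.36 for Sirt3, 0.68 for Sirt4, 0.15 for Sirt5 and -0.31 for Sirt6. In NAD+ cells they were 0.24 for Sirt1, 0.80 for Sirt2, 0.48 for Sirt3, 0.66 for Sirt4 and -0.27 for Sirt5.

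Sirt2 was 2.95 times higher under differentiation than under proliferating conditions in Ctrl cells, with every differentiation sample above every proliferating one (log2 fold change 1.61, standard error 0.25, limma adjusted p = 0.000198, and 1.67 relative to all genes). In NAD+ cells it was 1.49 times higher, also without overlap, and its difference of 0.60 on the log2 scale, with a standard error of 0.25, was short of the threshold (limma adjusted p = 0.0548), though it passed with median-ratio scaling (0.0146) and quantile normalization (0.00246). Without the first replicate of both proliferating groups it was 0.81 (limma adjusted p = 0.00101). Oligodendrocyte lineage markers moved beside Sirt2, with 6 of 9 tested genes higher and 0 lower in Ctrl cells (Mag by 4.28 and Myrf by 3.14 on the log2 scale), and 6 higher and 0 lower in NAD+ cells. Astrocyte markers moved as well, with 5 of 8 higher and 2 lower in both Ctrl and NAD+ cells. In Ctrl cells Gfap rose by 4.96, Aqp4 by 2.20, Gja1 by 1.83 and Slc1a2 by 1.58 on the log2 scale. The 2 that fell there were S100b, by 0.78, and Aldoc, by 0.69. Over all tested genes, 25.0% were higher and 31.6% lower in Ctrl cells, and 20.8% were higher and 37.6% lower in NAD+ cells. Nfkbib had a log2 fold change of 0.13 in Ctrl cells (limma adjusted p = 0.358). The part of these markers in the difference was not tested.

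Sirt7 rose under differentiation conditions in both Ctrl and NAD+ cells. Its mean went from 2.96 ± 0.157 FPKM to 4.86 ± 0.250 FPKM in Ctrl cells (SD, n = 3, log2 fold change 0.70, standard error 0.09, limma adjusted p = 8.22e-05). With NAD+ it went from 3.43 ± 0.208 FPKM to 5.84 ± 0.523 FPKM (log2 fold change 0.75, limma adjusted p = 3.95e-05). Relative to all genes the log2 fold changes were 0.76 and 0.95. Mafg, whose 3′ end overlaps the start of Sirt7 on the same strand, rose beside it, from 11.2 ± 1.72 FPKM to 23.2 ± 1.68 FPKM in Ctrl cells (log2 fold change 1.05) and by 1.06 on the log2 scale in NAD+ cells. Its part in the Sirt7 values was not tested.

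Sirt6 fell under differentiation conditions in NAD+ cells, from 4.27 ± 0.101 FPKM to 2.49 ± 0.288 FPKM without overlap (SD, n = 3, log2 fold change -0.76, standard error 0.14, limma adjusted p = 0.000542, and -0.56 relative to all genes). In Ctrl cells it went from 4.30 ± 0.591 FPKM to 3.31 ± 0.485 FPKM (log2 fold change -0.37, limma adjusted p = 0.0381). The Ctrl values overlapped, and this call was lost with median-ratio scaling (limma adjusted p = 0.166), with quantile normalization (0.112), without the low-value filter (0.0537) and without 6 of the 12 single samples, the first proliferating Ctrl replicate among them (limma adjusted p between 0.0515 and 0.128). Sirt1 went from 3.96 ± 0.577 FPKM to 4.73 ± 0.554 FPKM in Ctrl cells (log2 fold change 0.26, limma adjusted p = 0.137). In NAD+ cells it went from 4.31 ± 0.596 FPKM to 4.39 ± 0.161 FPKM (0.03, limma adjusted p = 0.849). Its values overlapped in both comparisons, and both differences passed the test with median-ratio scaling (log2 fold changes of 0.38 and 0.31, limma adjusted p = 0.0195 and 0.0486).

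The mitochondrial members went in different directions. Sirt4 rose from 4.16 ± 0.559 FPKM to 6.41 ± 0.520 FPKM in Ctrl cells (SD, n = 3, log2 fold change 0.62, limma adjusted p = 0.000953) and from 4.39 ± 0.417 FPKM to 6.06 ± 0.479 FPKM in NAD+ cells (0.46, limma adjusted p = 0.00576). No values overlapped in either. Sirt3 rose by a smaller amount, from 3.14 ± 0.0907 FPKM to 3.91 ± 0.387 FPKM in Ctrl cells (log2 fold change 0.30, limma adjusted p = 0.0272) and from 2.82 ± 0.211 FPKM to 3.43 ± 0.250 FPKM in NAD+ cells (0.27, limma adjusted p = 0.0418). The Sirt3 call in Ctrl cells was lost without the first or the second proliferating Ctrl replicate and without the second or the 3rd differentiation Ctrl replicate (limma adjusted p between 0.0520 and 0.108). The Sirt3 call in NAD+ cells was lost without 7 of the 12 single samples (limma adjusted p between 0.0516 and 0.136), without the low-value filter (0.0536) and with the replicate block (0.0541). Psmd13, which overlaps Sirt3 on the other strand, fell by 0.82 in Ctrl cells and by 0.95 in NAD+ cells on the log2 scale. Sirt5 was at 1.07 ± 0.01 FPKM and 1.15 ± 0.105 FPKM in Ctrl cells (log2 fold change 0.09, limma adjusted p = 0.615, and -0.020 with quantile normalization). In NAD+ cells it fell from 1.05 ± 0.0954 FPKM to 0.733 ± 0.104 FPKM (-0.47, limma adjusted p = 0.0170), a call that was lost with median-ratio scaling (0.230) and without the first proliferating NAD+ (0.0563) or the first differentiation NAD+ replicate (0.0644).

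In Ctrl cells 5 of the 7 members were thus called, 4 higher and 1 lower, beside 56.7% of all 19498 tested genes, 25.0% higher and 31.6% lower. In NAD+ cells 5 were called, 3 higher and 2 lower, beside 58.4% of all genes, 20.8% higher and 37.6% lower. The number of members called was therefore close to that of genes in general in both comparisons. The median log2 fold change over the members was 0.30 in Ctrl cells and 0.27 in NAD+ cells. By the rule of an unadjusted p under 0.05 with a more than 2-fold difference, 1 member, Sirt2, was called in Ctrl cells (31.1% of all genes) and 0 in NAD+ cells (33.4% of all genes).

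**Figure D3:**
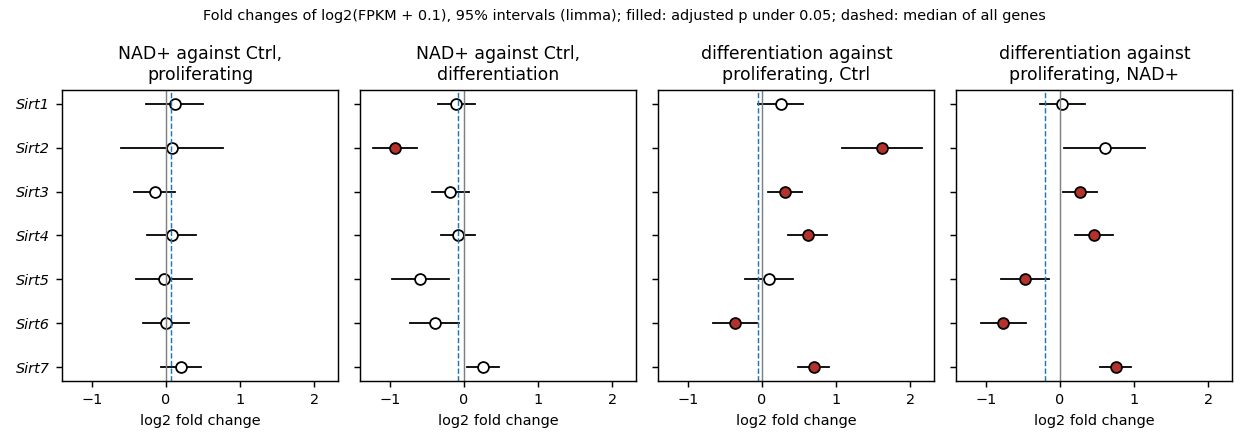
Log2 fold changes of the 7 genes in 4 comparisons, with 95% intervals from limma, filled where the adjusted p was under 0.05, and the median of all tested genes as a dashed line. With NAD+, Sirt2 under differentiation conditions (-0.93) is the only filled point, and differentiation against proliferating conditions gives 5 filled points each in Ctrl and in NAD+ cells.

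The summed level of the family necessarily follows Sirt2, which made up most of it on average. The 7 genes summed to 44.9 ± 9.90 FPKM in the proliferating Ctrl group, 46.5 ± 6.70 FPKM in the proliferating NAD+ group, 99.2 ± 9.71 FPKM in the differentiation Ctrl group and 62.2 ± 4.87 FPKM in the differentiation NAD+ group (SD, n = 3). Sirt2 made up 55.2%, 55.8%, 75.3% and 62.9% of these sums on average. Without Sirt2 the sums were 19.6, 20.3, 24.4 and 22.9 FPKM, so in FPKM the other 6 genes together moved far less than Sirt2 alone. This compares amounts and not ratios, and each of the other 6 genes has a lower level. In the differentiation Ctrl group the summed level of all 7 was at least 92.0 FPKM in every sample, and in the differentiation NAD+ group at most 67.8 FPKM.

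**Figure D4:**
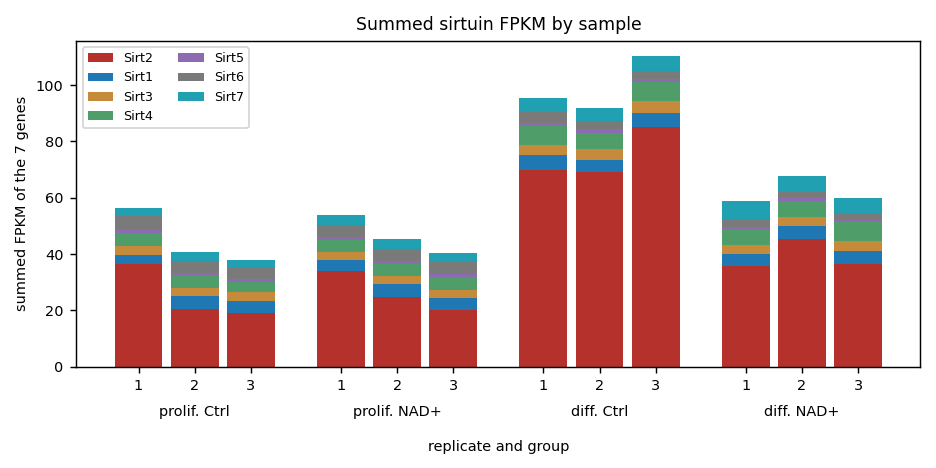
Stacked FPKM of the 7 sirtuin genes in each sample, by group and replicate. Sirt2 (bottom segment) is 75.3% of the sum on average in the differentiation Ctrl group and 62.9% in the differentiation NAD+ group, and the other 6 genes together stay between 18.8 and 25.4 FPKM in all samples.

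The genes whose proteins regulate SIRT1 or partner with it, 10 in all, had 0 calls with NAD+ under proliferating conditions. Over all tested genes, 0.145% were called there. Arntl, which encodes a clock transcription factor, was at 3.36 ± 0.0751 FPKM in Ctrl and 1.86 ± 0.0721 FPKM with NAD+ there (SD, n = 3, log2 fold change -0.82, limma adjusted p = 0.0600), and it was the 1 gene called with a minimum mean FPKM of 1 (0.0434), with quantile normalization (0.0495) and with all 12 samples in one fit (0.00262). Under differentiation conditions 1 of 10 fell with NAD+ and 0 rose, beside 4.65% of all tested genes that were lower. This was Elavl1, which encodes an RNA-binding protein that binds Sirt1 mRNA (log2 fold change -0.32, limma adjusted p = 0.0471). Of the 10 genes, 0 were called with either other scaling, with the replicate block, without the low-value filter or without any 1 of the 6 samples. From proliferating to differentiation conditions, 8 of 10 fell and 0 rose in Ctrl cells, beside 31.6% of all tested genes lower and 25.0% higher. Among these were E2f1, a cell cycle transcription factor that activates Sirt1 (-3.62), Rps19bp1, an activator of SIRT1 (-1.22), Arntl (-1.18), and Hic1, a repressor of Sirt1 transcription (-1.08). In NAD+ cells 8 of 10 fell as well and 0 rose, beside 37.6% lower and 20.8% higher among all genes. The list median was -0.75 in Ctrl cells and -0.82 in NAD+ cells, while Sirt1 itself, as given above, did not pass the test in either.

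Substrates of the sirtuins were examined by compartment. Of 19 genes for nuclear and cytosolic substrates, 0 were called with NAD+ in either condition. Over all tested genes, 0.145% were called under proliferating and 6.92% under differentiation conditions. In Ctrl cells 8 rose and 4 fell from proliferating to differentiation conditions, and these 12 of 19 stand near the 56.7% called over all genes. The rises included Srebf1, a lipid synthesis regulator (1.37), and Foxo1 (1.01), and the falls Ppargc1a, a coactivator of mitochondrial biogenesis (-1.38), and Hif1a (-0.76). In NAD+ cells 5 rose and 5 fell, beside 58.4% of all genes called. Of 19 genes for mitochondrial substrates, 17 were tested. With NAD+, 0 of 17 were called under proliferating conditions, beside 0.145% of all tested genes. Under differentiation conditions 3 fell and 0 rose, beside 4.65% of all tested genes that were lower.

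Glud1 and Acss1 were among the mitochondrial substrates that fell with NAD+ under differentiation conditions. Glud1, which encodes glutamate dehydrogenase, a SIRT4 target, went from 459.6 ± 10.2 FPKM to 329 ± 14.0 FPKM (SD, n = 3, log2 fold change -0.48, limma adjusted p = 0.00723). Acss1, which encodes a mitochondrial acetyl-CoA synthetase that SIRT3 activates, went from 11.7 ± 0.848 FPKM to 8.89 ± 0.479 FPKM (-0.39, limma adjusted p = 0.0349). Under proliferating conditions Glud1 and Acss1 differed from Ctrl by -0.52 and -0.73 on the log2 scale (limma adjusted p = 0.137 and 0.141). From proliferating to differentiation conditions, 11 of 17 fell and 2 rose in Ctrl cells, and 13 fell and 1 rose in NAD+ cells, beside 31.6% and 37.6% of all genes that were lower. Pdha1 (-1.47), Dlat (-1.29) and Sod2 (-1.04) were among the falls in Ctrl cells, and Glud1 (0.61) was among the rises.

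Genes of NAD+ synthesis and salvage and of other NAD+ consumers were examined because they share the co-substrate with the sirtuins. Of 17 genes of synthesis and salvage, those above the low-value filter were tested. With NAD+, 0 of 10 tested genes were called under proliferating conditions, beside 0.145% of all tested genes. Under differentiation conditions, beside 6.92% of all tested genes called in either direction, 1 of 11 rose and 0 fell. This was Nmnat2, which encodes an NAD+-synthesizing enzyme abundant in axons, at 11.1 ± 0.504 FPKM in Ctrl and 17.1 ± 1.23 FPKM with NAD+ (SD, n = 3, log2 fold change 0.62, limma adjusted p = 0.00891). Nampt, which encodes the rate-limiting enzyme of salvage from nicotinamide, fell by 1.03 on the log2 scale from proliferating to differentiation conditions in Ctrl cells (limma adjusted p = 3.81e-06) and by 1.00 in NAD+ cells. In Ctrl cells 3 of 11 rose and 1 fell, and in NAD+ cells 2 rose and 4 fell, beside 56.7% and 58.4% of all genes called in either direction.

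Of the 8 other NAD+ consumer genes, 7 were tested, and 0 were called with NAD+ in either condition. Over all tested genes, 0.145% were called under proliferating and 6.92% under differentiation conditions. Parp1, which encodes the main poly(ADP-ribose) polymerase, differed by -0.28 on the log2 scale with NAD+ under differentiation conditions (limma adjusted p = 0.0513). From proliferating to differentiation conditions, 2 of 7 rose and 2 fell in Ctrl cells, again beside 56.7% of all genes called. Cd38, which encodes an NAD+ glycohydrolase, rose by 2.34 on the log2 scale from a low level of 0.160 ± 0.0361 FPKM, and Parp1 fell by 0.67. Tnks2, which encodes a tankyrase, fell by 0.29, and its value was 0.068 with quantile normalization. In NAD+ cells 2 of 7 rose and 3 fell, beside 58.4% of all genes called.

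For each sirtuin gene, the 2 genes with the most similar profile over the 12 samples were found among 11648 genes, by the root-mean-square difference of log2 values after centring each gene on its mean. The closest profile to Sirt2 was that of 2310022B05Rik at a difference of 0.221, followed by S100a6 at 0.227, against a variation of Sirt2 around its own mean of 0.703. Those closest to Sirt7 were Per1 at 0.0779 and Ctsa at 0.106, against 0.387. Sirt4 was closest to Neil1 (0.0868) and Cacng7 (0.0897), Sirt6 to Gga1 (0.104) and Dact3 (0.108), and Sirt5 to Slc4a8 (0.101) and Bin1 (0.103). Sirt1, at 0.0670 from Srsf6 and 0.0779 from Rgl1, and Sirt3, at 0.0752 from both Pcdh10 and Mmut, varied least themselves, with 0.166 and 0.188 around their means. Every one of the 12 samples enters both profiles of a pair, so these differences share each sample's scaling.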

How the data were processed

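RNA-seq was made from 12 samples, 3 in each of 4 groups that follow the sample titles. The authors mapped reads to mm10 with Hisat2 2.0.5, counted them with FeatureCounts 2.0.1 and deposited FPKM values for 55401 genes in a table per condition. The program that computed FPKM and the use of strand are not given in the sources used here. The depth is unknown, so no counting error is given. All 12 FPKM columns entered the fits, and the number of unused per-sample columns was 0. The deposited tables also hold the authors' fold change (ratio), its log2, p-values, q-values and a mark of direction and significance per gene, which were not used.

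The FPKM values were not rescaled. Genes whose mean FPKM in the samples of a fit reached 0.1 were tested with limma 3.58.1 (R 4.3.3) on log2(FPKM + 0.1), two-sided, with a variance trend and Benjamini-Hochberg adjustment over all tested genes. A call was an adjusted p under 0.05. The NAD+ effects were fitted on the 6 samples of each condition. The difference between them and both comparisons of conditions were contrasts of a fit of all 12 samples. In the ratio of mean FPKM values, zeros were set to 0.0001. Exact two-sided permutation tests of 3 against 3 samples used the difference of means. Same-numbered samples were checked for pairing by the correlation of their deviations from the group means. It lay between 0.0125 and 0.167, not above 0.1 in every pair, so the numbers were not taken to pair the samples.

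The members, the gene lists and the tests were chosen with earlier results of these data known. All 7 members were named in every comparison, with up to 4 called genes per list and direction by fold change (where none was called, up to 2 by unadjusted p, as values), genes that overlap a member or start within 1000 bases of its start, 2 similar profiles per member, and markers that stand for their list. Some genes that this rule names are not reported here. Gene positions came from GENCODE M21 and promoter windows from RefSeq (GRCm38.p6). On simulated data with 200 changed genes, 51% of those changed by 1 on the log2 scale and 89% of those changed by 2 were called in the NAD+ comparison under differentiation conditions (19277 genes). The simulated noise was independent between genes and samples. These shares therefore need not hold for the real data, where 1357 genes were called. Alternatives were another number added (1 or 0.01), no filter or a minimum mean FPKM of 1, median-ratio scaling, quantile normalization, a replicate block, no moderation, all 12 samples in one fit, the rule of an unadjusted p with a 2-fold difference, and leaving out samples. Python 3.11.15, pandas 2.3.3, numpy 2.4.6, scipy 1.17.1 and matplotlib 3.10.9 were used for tables and figures.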

Additional observations from a re-analysis of the deposited data

How the results depend on the processing

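Members called were 0 of 7 (NAD+, proliferating), 1 (NAD+, differentiation), 0 (difference of the NAD+ effects), 5 (differentiation against proliferating, Ctrl) and 5 (the same, NAD+). Without moderation of the variance, NAD+ under differentiation conditions gave 0, and the rule of an unadjusted p with a 2-fold difference gave 0, and 1 and 0 for differentiation against proliferating conditions in Ctrl and NAD+ cells. Without the first replicate of both proliferating groups the difference of the NAD+ effects gave 1 (Sirt2). Leaving out each sample in turn gave 0 to 0, 1 to 1, 0 to 0, 3 to 5 and 3 to 6 calls in the order above. The 3 calls in Ctrl cells, Sirt2, Sirt4 and Sirt7, arose without replicate 1 or 2 of the proliferating or replicate 2 or 3 of the differentiation group, and those in NAD+ cells, Sirt4, Sirt6 and Sirt7, without the first differentiation replicate. With all 12 samples in one fit, the 1 call for NAD+ under differentiation conditions was Sirt5 in place of Sirt2. Of 657 recomputed member values, 23 changed sign in 11 results, 0 of them where either value was called. Other than those that left out a single sample, these were, for NAD+ under proliferating conditions, Sirt4 (-0.023, quantile normalization) and Sirt6 (-0.000368 with 1 added, -0.064 with median-ratio scaling, -0.10 with quantile normalization), and, for NAD+ under differentiation conditions, Sirt4 (0.00217, median-ratio scaling). For the difference they were Sirt3 (0.12 with median-ratio scaling, 0.15 with quantile normalization, 0.048 without the first replicate of both proliferating groups) and Sirt4 (0.011, quantile normalization), and for differentiation against proliferating conditions Sirt5 in Ctrl (-0.020, quantile normalization) and Sirt1 in NAD+ cells (-0.074 without the first replicate of both proliferating groups). Tnks2, no member, was 0.068 and 0.00424 with quantile normalization. Leaving out single samples gave, for NAD+ under proliferating conditions, log2 fold changes from -0.00135 to 0.23 for Sirt1, -0.12 to 0.37 for Sirt2, -0.090 to 0.029 for Sirt5 and -0.11 to 0.085 for Sirt6, for the difference -0.11 to 0.033 for Sirt3 and -0.018 to 0.10 for Sirt7, and for differentiation against proliferating conditions in NAD+ cells -0.074 to 0.12 for Sirt1. With the replicate block, 0, 1, 0, 5 and 4 members were called in the same order (Sirt3 was lost in NAD+ cells), and over all genes 0 calls in place of 27, 758 of 1357, 26 of 91, 10903 of 11048 and 11218 of 11386. Every differentiation Ctrl sample correlated best with its own number, as did 1 of the 3 proliferating Ctrl samples, a hint from the data and not the design. A minimum mean FPKM of 1 gave 75 calls in place of 27, no filter 9, quantile normalization 60 and all 12 samples in one fit 735 under proliferating conditions, and no moderation 594 in place of 1357 under differentiation conditions. Of all calls under differentiation conditions, 32.8% were higher with NAD+, and 53.5% with median-ratio scaling. For differentiation against proliferating conditions in NAD+ cells this share was 35.6% and 51.0%, and for the difference 47.3% and 74.2%. The causes were not tested. With 3 samples a group and FPKM of unknown depth, changes of the size seen for Sirt1, Sirt3 and Sirt4 with NAD+ lie within intervals that include 0.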

Other observations

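Other enzymes that remove or add acetyl groups do so without NAD+. Of 11 zinc-dependent histone deacetylase genes, 0 were called with NAD+ under proliferating conditions, beside 0.145% of all tested genes. Under differentiation conditions, beside 6.92% of all tested genes called, Hdac5 rose (7.57 ± 0.238 to 9.46 ± 0.443 FPKM, SD, n = 3, log2 fold change 0.32, limma adjusted p = 0.0360) and Hdac2 fell (16.99 ± 0.235 to 14.3 ± 0.457 FPKM, -0.25, limma adjusted p = 0.0366). These calls fell to 0 with the replicate block, with all 12 samples in one fit and without any 1 of the 6 samples. From proliferating to differentiation conditions in Ctrl cells 3 rose, Hdac10 (0.76), Hdac4 (0.63) and Hdac8 (0.33), and 6 fell, among them Hdac9 (-1.52), Hdac2 (-1.24), Hdac1 (-0.88) and Hdac7 (-0.54), beside 56.7% of all tested genes called, 25.0% higher and 31.6% lower. In NAD+ cells 3 rose and 7 fell, beside 58.4% called.

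Of 10 lysine acetyltransferase genes, 0 were called with NAD+ in either condition. Over all tested genes, 0.145% were called under proliferating and 6.92% under differentiation conditions. Kat2b passed the test under proliferating conditions with all 12 samples in one fit (limma adjusted p = 0.0433), where 735 genes in all were called. Kat2a, which encodes GCN5, went from 13.3 ± 1.22 to 16.6 ± 0.781 FPKM with NAD+ under proliferating conditions and from 13.8 ± 0.732 to 11.6 ± 0.525 FPKM under differentiation conditions, and the difference of these effects was -0.57 on the log2 scale (limma adjusted p = 0.0658). In Ctrl cells, 2 of 10 rose under differentiation conditions, Kat6b (0.76) and Crebbp (0.70), and 3 fell, Hat1 (-1.17), Kat7 (-0.76) and Kat5 (-0.30), which is near the share called over all genes. In NAD+ cells 2 rose and 4 fell, beside 58.4% of all genes called.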
